A study of Mus musculus with 6 samples.

Results

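The genes examined here encode the receptors and co-receptors through which fibroblast growth factors (FGFs) act, together with an enzyme that acts on FGF23, the hormone that lowers blood phosphate. They were the 4 receptor tyrosine kinases Fgfr1, Fgfr2, Fgfr3 and Fgfr4, the co-receptors Kl (alpha-Klotho) and Klb (beta-Klotho), and Galnt3, and were chosen by gene symbol. All 7 were found among the 47967 genes of the count table, and 5 of the 7 passed the filter on low counts. RNA was sequenced from the calf muscle gastrocnemius. The mice of both groups were C57BL/6 males, 20 to 24 weeks old, with no further genotype given, and were kept on their diet for 12 weeks. The normal phosphate diet held 0.6% inorganic and 0.9% total phosphate, and the high phosphate diet 2.0% inorganic and 2.3% total phosphate, while magnesium (0.3%), calcium (1.9%), potassium (1.8%) and sodium (0.9%) were the same in both. Each diet had 3 libraries (replicates 1, 2 and 3). The labels do not say that these came from separate mice, so p-values measure no more than how these samples vary, and that may be technical.

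FGFs bind receptors at the cell surface with heparan sulfate as a cofactor, and the activated kinase passes the signal through the adaptor Frs2 to the Ras and MAP kinase cascade. Endocrine FGFs bind heparan sulfate weakly and need a Klotho protein: FGF23, made in bone, uses alpha-Klotho, which is abundant in kidney, and FGF21 uses beta-Klotho, which is known from liver and fat. Galnt3 attaches sugars to FGF23 and so shields it from cleavage.

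The libraries held 21856006 to 27474251 counts. Levels are given as CPM, counts scaled to library size after normalization by trimmed means (TMM), on which 3 counts stood for 0.106 to 0.156 CPM, and fold changes as log2 of high over normal phosphate ± SE, with n = 3 libraries per diet. TMM sets a typical gene to no change. With library size alone the median change over all genes (log2) moved from -0.016 to -0.49, so directions are relative to a typical gene. The markers of muscle fibres (8 of 8 detected) summed to 67680 to 100200 CPM under normal phosphate and 184200 to 225200 CPM under high phosphate, and Ckm alone stood at 7093 to 23980 CPM. Normal phosphate replicate 2 stood apart from the other libraries of its diet on the first principal component (-75.4 against -36.5 and -43.8).

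Of the 5 members tested, Klb, Fgfr2 and Fgfr4 fell on the high phosphate diet, Fgfr3 rose, and Fgfr1, by far the most abundant, did not pass the test (edgeR adjusted p under 0.05). Across all 15347 genes tested, 49.3% changed, 26.3% falling and 23.0% rising. The diets did not overlap in any of the 5, as in 62.4% of all genes tested. With library size alone, where 5.72% of all genes rose and 51.4% fell, 0 members rose and the same 3 fell. With limma on the deposited FPKM (log2 of FPKM + 1), where 41.6% of all genes changed, Klb and Fgfr4 were called. Kl and Galnt3 were too low to test.

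The receptors differed widely in abundance. Divided by the length of their exons, which allows genes to be compared, Fgfr1 stood at 12.61, 13.01 and 13.58 CPM per kb in normal phosphate replicates 1, 2 and 3 and at 13.77, 15.47 and 14.72 in the high phosphate replicates. On the normal phosphate diet it was followed by Fgfr4 (1.49 ± 0.0882 CPM per kb, mean ± SD, n = 3), Fgfr3 (1.12 ± 0.239), Klb (0.959 ± 0.0905) and Fgfr2 (0.241 ± 0.152), then by Galnt3 (0.0224 ± 0.00503) and Kl (0.0106 ± 0.00259). Of these neighbours only Fgfr3 and Klb overlapped in range. On the high phosphate diet Fgfr3 (1.68 ± 0.311 CPM per kb) stood above Fgfr4 (0.764 ± 0.140), and on this measure the ranges of the 2 genes did not overlap on either diet. Their order under normal phosphate depended on the measure. By the deposited FPKM, Fgfr3 was above Fgfr4 in normal phosphate replicates 1 (2.177 against 1.075) and 2 (2.007 against 1.501) and below it in 3 (0.587 against 1.465). In CPM per kb under high phosphate, Klb (0.120 ± 0.0509) and Galnt3 (0.0996 ± 0.0614), Galnt3 and Fgfr2 (0.0599 ± 0.0233), and Fgfr2 and Kl (0.0385 ± 0.0196) overlapped. Fgfr1 made up 82.1 ± 1.54% of the summed level of the 4 receptors under normal phosphate and 85.4 ± 0.282% under high phosphate. The share of Fgfr4 was 9.36 ± 0.556% and 4.49 ± 1.05%, and that of Fgfr3 was 7.05 ± 1.64% and 9.75 ± 1.26%.

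**Figure D1:**
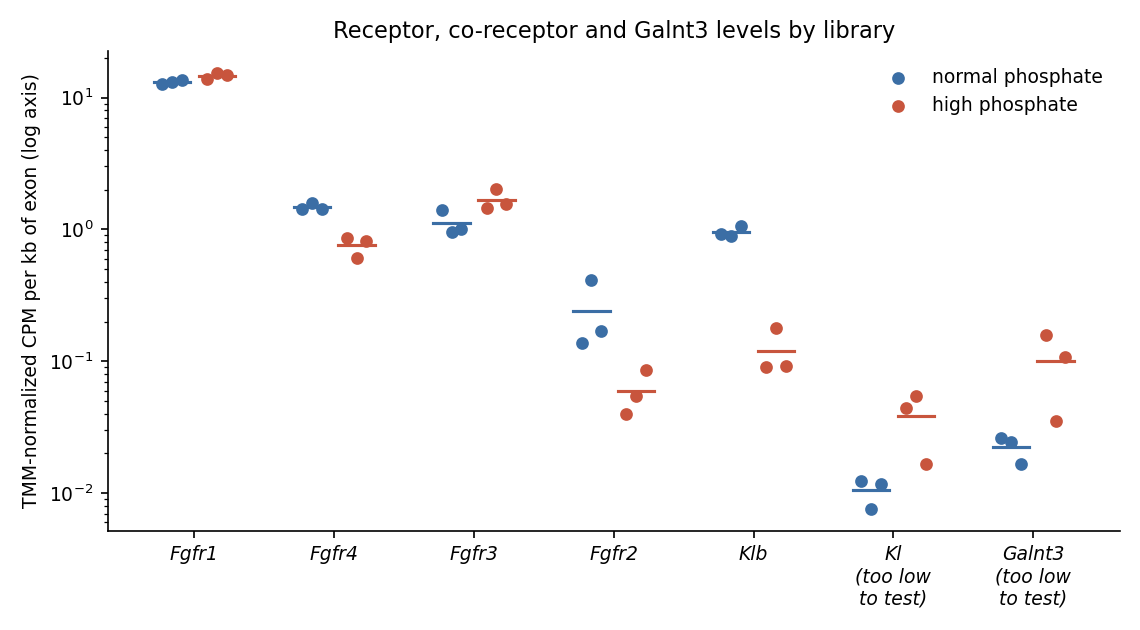
TMM-normalized CPM per kb of exon (log axis) of the 4 receptors, 2 co-receptors and Galnt3, with points for libraries, a line for the mean of each diet, normal phosphate in blue and high phosphate in red. Fgfr1 sits between 12.6 and 15.5 in every library, Klb falls from 0.896 to 1.06 under normal phosphate to 0.0907 to 0.179 under high phosphate, and Kl and Galnt3 are the lowest of the 7 under normal phosphate.

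The sequences before the start sites of the 3 genes that fell, as did 26.3% of all genes tested, are shown. Their starts differ in their content of CG pairs, a feature by which promoters are commonly divided. The sequences were read from RefSeq promoter windows (GRCm38.p6) of 250 bases before the annotated start, in which 6 of the 7 members were matched by symbol. They were cut where the first exon of any transcript in the GENCODE M21 annotation begins. Each is written 5′ to 3′ on the strand of the gene, with CG pairs in capitals. The stretches are chr5:65348161-65348313 (plus strand, 153 bases, 7 CG pairs) for Klb, chr7:130266809-130267058 (minus strand, 250 bases, 2 CG pairs) for Fgfr2, at a start inside the annotated gene, and chr13:55152568-55152639 (plus strand, 72 bases, 1 CG pair) for Fgfr4.
Klb: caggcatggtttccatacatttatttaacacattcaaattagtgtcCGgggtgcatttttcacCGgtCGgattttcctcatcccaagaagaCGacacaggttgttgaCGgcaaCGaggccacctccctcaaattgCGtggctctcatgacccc
Fgfr2: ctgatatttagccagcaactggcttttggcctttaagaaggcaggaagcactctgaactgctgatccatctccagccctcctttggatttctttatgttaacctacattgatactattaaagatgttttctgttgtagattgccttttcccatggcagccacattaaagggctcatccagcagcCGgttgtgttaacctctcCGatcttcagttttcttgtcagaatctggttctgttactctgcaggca
Fgfr4: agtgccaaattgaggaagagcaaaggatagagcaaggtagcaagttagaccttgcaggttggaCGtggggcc
Over the whole 250 bases Klb had 9 CG pairs and 48.0% G and C, Fgfr2 had 2 and 44.0%, and Fgfr4 had 15 and 64.0%, beside medians of 6 and 52.4% over 32851 windows of the same length. The GC box GGGCGG, searched on both strands, was found 2 times in the window of Fgfr4 and not in those of Klb or Fgfr2. Neither match lay within the 72 bases of Fgfr4 shown, and 32.7% of all windows held the box. CCAAT (33.8% of all windows), TATAAA (12.4%), CAGCTG (13%) and AGGTCA (14.0%) were in none of the 3 windows on either strand. These are matches of letters within the window and say nothing about binding.

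Klb encodes beta-Klotho, the single-pass membrane protein that lets FGF21 bind its receptor, chiefly Fgfr1. It was counted at 109, 115 and 132 reads in normal phosphate replicates 1, 2 and 3 and at 9, 16 and 8 reads in the high phosphate replicates, or 4.18, 4.07 and 4.83 against 0.412, 0.815 and 0.415 CPM. Every high phosphate library was below every normal one, and the difference was far larger than the spread within either diet. The log2 fold change was -2.99 ± 0.29 (edgeR adjusted p = 0.000291), a 7.93-fold lower level, and 0.945% of the genes tested had a change as low or lower. It was called under every alternative run, between -0.88 with log2(FPKM + 1), on which a pseudocount of 1 is large beside a low gene, and -3.46 with library size alone. Per length, Klb stood at 7.33 ± 0.471% of Fgfr1 under normal phosphate and 0.813 ± 0.301% under high phosphate. Klb lies on chromosome 5 (65348314 to 65384007, plus strand, GRCm38), and none of its 50-base stretches occurs in a transcript of another gene.

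Markers of white adipocytes, a cell type in which Klb is known to be expressed, moved with Klb. All 7 (Adipoq, Plin1, Cidec, Cfd, Retn, Lep and Adrb3) fell, beside 26.3% of all genes tested, and none of the 7 was at 0 in any library. Their summed level was 1289 to 1917 CPM under normal phosphate and 217 to 422 CPM under high phosphate, and their median log2 fold change was -2.30. In these bulk samples fewer cells of a type and less RNA per cell cannot be told apart, and the part of the adipocyte markers in the fall of Klb was not tested.

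Fgfr2, a receptor whose splice forms are known from epithelium and from connective tissue, was low and fell. Its counts were 37, 121 and 48 in the normal phosphate replicates and 9, 11 and 17 in the high phosphate replicates, that is 1.42, 4.29 and 1.76 against 0.412, 0.560 and 0.883 CPM. Normal phosphate replicate 2 was far above the other libraries, and the diets did not overlap. The log2 fold change was -2.01 ± 0.49 (edgeR adjusted p = 0.00956), and without that library it was -1.37 (0.0159). On the FPKM values deposited by the authors it was not called, at -0.40 with log2(FPKM + 1) (limma adjusted p = 0.145) and -1.27 with log2(FPKM + 0.1) (limma adjusted p = 0.0711). The larger pseudocount shrinks the change of so low a gene, and the ratio of its FPKM to unscaled CPM varied 2.56-fold between libraries. The counts are per gene, so splice forms are not resolved. The annotated gene spans 130162451 to 133123350 on chromosome 7 (minus strand) and shares 3.04% of its exonic bases with Ctbp2, which stood at 17.8 ± 1.32 and 17.9 ± 2.01 CPM on the normal and high phosphate diets.

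Markers of fibroblasts moved with Fgfr2. Of 8, 7 fell and 0 rose, none was at 0, and their sum was 4275 to 8871 CPM under normal phosphate and 2202 to 2480 CPM under high phosphate. Normal phosphate replicate 2, the library with the most Fgfr2, also had the largest fibroblast sum. That peak lay mainly in the collagens Col3a1 (4082 CPM against 1513 and 1136 in replicates 1 and 3) and Col1a1 (1509 against 395 and 361). In the same order Pdgfra stood at 138.2 against 119.5 and 115.7 CPM, and Dcn at 1976 against 2182 and 1896 CPM. The part of the fibroblast markers in the fall of Fgfr2 was not tested. Markers of other cell types differed between the diets to varying degrees, beside 26.3% of all genes falling and 23.0% rising. Macrophage markers (5 of 6 fell, 1 rose) summed to 241 to 449 against 134 to 175 CPM, and endothelial markers (5 of 6 fell) to 707 to 833 against 441 to 618 CPM. All 5 B cell markers fell, and Ms4a1, which encodes CD20, was at 0 in high phosphate replicate 1. Fewer fell among the markers of Schwann cells (1 of 5), tendon (1 of 4) and pericytes and smooth muscle (2 of 6), and 0 rose in each.

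Fgfr4, the receptor of liver and of regenerating muscle, was counted at 133, 159 and 139 reads under normal phosphate and 67, 42 and 56 reads under high phosphate. In CPM these were 5.10, 5.63 and 5.09 against 3.07, 2.14 and 2.91. The libraries of each diet lay close together and apart from those of the other. The log2 fold change was -0.96 ± 0.20 (edgeR adjusted p = 0.00399), a 1.95-fold lower level, and it was called under every alternative run, from -0.68 with log2(FPKM + 1) to -1.44 with library size alone. The gene lies on chromosome 13 (55152640 to 55168759, plus strand) and shares no exonic base with another gene. The 6 satellite cell markers, of the muscle stem cells in which Fgfr4 is known to be expressed, summed to 37.3 to 44.9 CPM under normal phosphate and 39.1 to 42.8 CPM under high phosphate. That sum combines opposite changes. Pax7, which defines these cells, fell (-0.90, edgeR adjusted p = 0.0130). Vcam1 fell (-1.19, from a mean of 18.58 to 8.135 CPM) and Cdh15 rose (1.19, from 11.03 to 25.15 CPM). Myf5, Calcr and Chrdl2 were not called. The part of satellite cells in the fall of Fgfr4 was not tested.

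**Figure D2:**
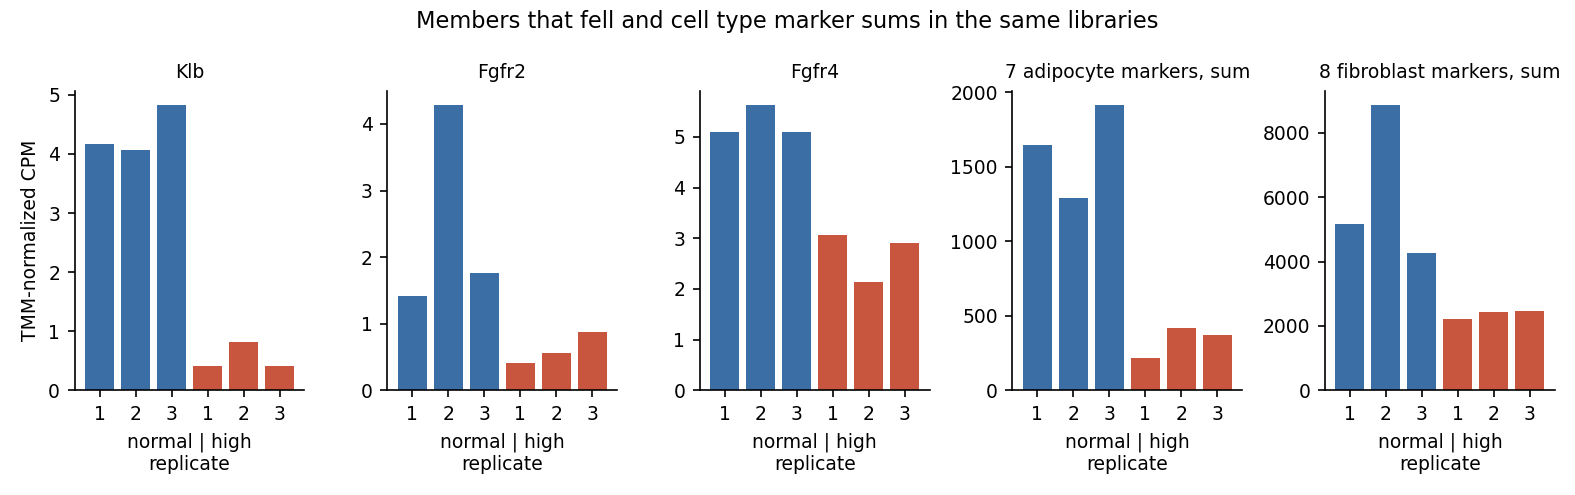
TMM-normalized CPM in each of the 6 libraries (normal phosphate in blue, high phosphate in red, replicates 1 to 3 along the x axis) of Klb, Fgfr2 and Fgfr4 and of the summed white adipocyte and fibroblast markers. All 5 are lower in every high phosphate library, and normal phosphate replicate 2 is highest for Fgfr2 (4.29 CPM) and for the fibroblast sum (8871 CPM). In that library Col3a1 gave 4082 CPM and Col1a1 1509 CPM of the fibroblast sum.

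Fgfr3, a receptor best known from cartilage, was counted at 260, 192 and 198 reads under normal phosphate and 228, 286 and 213 reads under high phosphate. In CPM it stood at 9.96, 6.80 and 7.25 against 10.4, 14.6 and 11.1. The diets did not overlap, but normal phosphate replicate 1 nearly reached the lowest high phosphate library. Fgfr3 rose by edgeR (0.59 ± 0.19, adjusted p = 0.0285) relative to a typical gene. The call was lost with library size alone (0.13), without normal phosphate replicate 2 (0.48) or 3 (0.52), without high phosphate replicate 2 (0.44), and with log2(FPKM + 1) (0.066, limma adjusted p = 0.888). The deposited FPKM of Fgfr3 did not follow its counts: it was 2.18, 2.01 and 0.587 under normal phosphate and 0.777, 1.89 and 2.39 under high phosphate, and its ratio to unscaled CPM varied 3.50-fold between libraries, against 1.10-fold for Fgfr1. On the opposite strand G630022F23Rik overlaps 13.9% of the exonic bases of Fgfr3 (chromosome 5, 33721674 to 33737068, plus strand), and it had 0 to 3 counts per library.

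Fgfr1, the main receptor of muscle precursors and connective tissue, was counted at 3249, 3626 and 3663 reads under normal phosphate and 2968, 2998 and 2799 reads under high phosphate. After TMM normalization it stood at 124.5, 128.5 and 134.1 against 136.0, 152.8 and 145.3 CPM. All high phosphate libraries were above the normal ones, the nearest at 136.0 and 134.1 CPM, and the gene was not called (0.17 ± 0.11, edgeR adjusted p = 0.234). The sign turned to -0.31 with library size alone (adjusted p = 0.0532 by edgeR) and to -0.33 for log2(FPKM + 1) (limma adjusted p = 0.0719), so the direction of Fgfr1 depended on the scaling. It lies on chromosome 8 (25513654 to 25575718, plus strand).

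**Figure D3:**
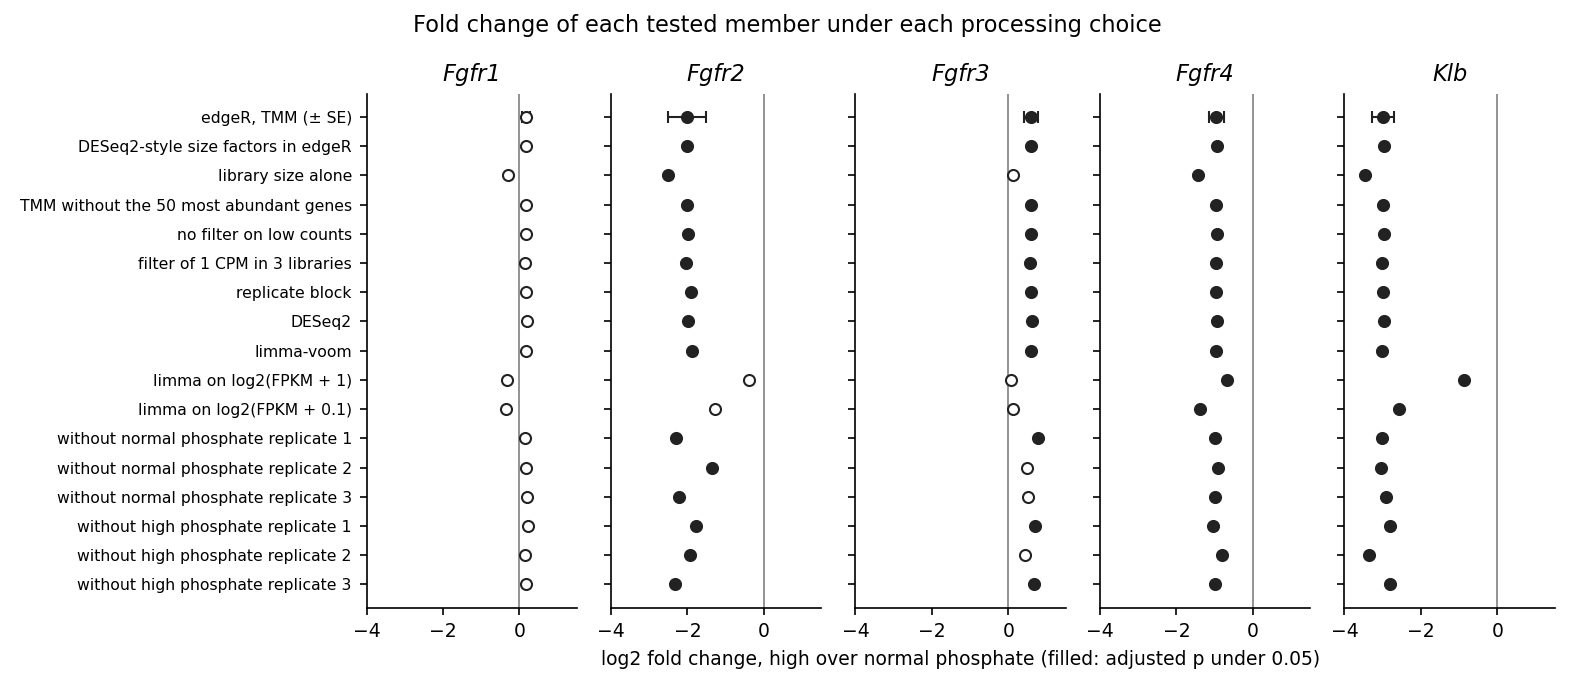
Log2 fold change (high over normal phosphate, x axis) of the 5 tested members under edgeR with TMM (top, ± SE) and each alternative, with filled points at an adjusted p under 0.05. Klb and Fgfr4 are filled throughout, Fgfr2 is open on both FPKM scales, Fgfr3 is open under 6 alternatives, and Fgfr1 is open throughout and changes sign.

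Kl and Galnt3 had at most 15 counts in any library and did not pass the filter, which asks for about 10 counts in at least 3 libraries, so they were not tested with the other members. Kl was counted at 3, 2 and 3 reads under normal phosphate and 9, 10 and 3 reads under high phosphate. Pooled over libraries these were 8 and 22 reads, a ratio of 3.70 (95% exact interval 1.59 to 9.61, covering counting error only). With library size alone the ratio was 2.65 (1.14 to 6.89). The lowest high phosphate library had no more reads than normal phosphate replicates 1 and 3. Galnt3 was counted at 3, 3 and 2 against 15, 3 and 9 reads, 8 and 27 pooled, a ratio of 4.54 (2.01 to 11.6). With library size alone it was 3.26 (1.44 to 8.29). High phosphate replicate 2 had as few Galnt3 reads as the normal phosphate libraries. The deposited FPKM of Galnt3 did not follow its counts, and its ratio to unscaled CPM varied 4.02-fold between libraries. Fitted without a filter, edgeR called both as higher (Kl 1.84, adjusted p = 0.0301; Galnt3 2.13, adjusted p = 0.00828), where 12.5% of all genes were called higher. DESeq2 called Galnt3 (2.19, adjusted p = 0.0487) and not Kl (1.91, adjusted p = 0.0968). Kl lies on chromosome 5 (150952607 to 150993817, plus strand) and Galnt3 on chromosome 2 (66082766 to 66124994, minus strand).

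Among tested genes with a mean of at least 1 CPM, those closest to each member in profile over the 6 libraries were found. Closeness was the root mean square difference of centred log2 CPM, and predicted genes (Gm and Rik symbols) were left out. The closest to Klb were Ffar2 (0.197), a receptor for short-chain fatty acids, and Ces1f (0.275). Fgfr2 was closest to Edil3 (0.167), Cdh11 (0.174), a cadherin of mesenchymal cells, and Zdhhc15 (0.182). Cdh11 also peaked in normal phosphate replicate 2 (31.4 CPM against 8.39 and 9.78). That peak follows from its choice by likeness to the profile of Fgfr2 and is no separate observation. Fgfr4 lay closest to Hic1 (0.054), Ldb2 (0.067) and Ttc39b (0.067). For Fgfr3 these were Bnip3 (0.069), a mitophagy receptor, Fnip1 (0.084) and Timm10 (0.088), and for Fgfr1 they were Tnrc6c (0.021), Mtx1 (0.030) and Med19 (0.031).

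Of 22 genes of the FGF family, 11 were tested, 3 rose and 5 fell, beside 23.0% of all genes rising and 26.3% falling. These counts include genes whose products stay inside the cell (Fgf11, Fgf13 and Fgf14) and so do not describe receptor ligands alone. Their median was -0.49 beside -0.016 over all genes. With library size alone 1 rose and 6 fell (median -0.96), where 5.72% of all genes rose and 51.4% fell. Fgf6, a ligand made by muscle itself, was counted at 99, 75 and 119 against 170, 180 and 168 reads and rose from 3.60 ± 0.866 to 8.56 ± 0.705 CPM (1.25 ± 0.20, edgeR adjusted p = 0.00146). Of the 8 muscle fibre markers 6 rose (median 1.14), and their part in the rise of Fgf6 was not tested. Fgf1 (0.59 ± 0.16) and Fgf13 (0.74 ± 0.15) rose as well, although neither was called with library size alone (0.11 and 0.27) and Fgf13 changed sign with log2(FPKM + 1) (-0.15). Fgf1 also lost its call without normal phosphate replicate 2 (0.55) or high phosphate replicate 1 (0.47). Fgf11 (-1.29 ± 0.15) and Fgf14 (-2.04 ± 0.38), which like Fgf13 stay inside the cell, fell, as did the secreted Fgf7 (-0.49 ± 0.13), Fgf16 (-1.29 ± 0.40) and Fgf18 (-1.11 ± 0.32). Fgf7 was not called without high phosphate replicate 1 (-0.41), Fgf18 without normal (-0.89) or high phosphate replicate 2 (-0.90), and Fgf16 without normal phosphate replicate 1 (-1.06) or 2 (-1.23) or high phosphate replicate 1 (-1.11) or 3 (-1.12). Fgf16 was also not called by DESeq2 (-1.26). Fgf2 stood at -0.16 and was not called (edgeR adjusted p = 0.244), but was called lower with library size alone (-0.63) and had the opposite sign for log2(FPKM + 1) (0.60). That value rested on high phosphate replicate 2, with a deposited FPKM of 18.97 for Fgf2 against 3.57 to 4.44 in the other libraries. The ratio of FPKM to unscaled CPM varied 6.59-fold for Fgf2 and 9.04-fold for Fgf13.

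The endocrine ligands were close to absent from the reads. Fgf21, the ligand of beta-Klotho, had 3, 4 and 3 reads under normal phosphate and 0, 1 and 0 under high phosphate, a pooled ratio of 0.134 (95% exact interval 0.00310 to 0.945) that was not tested between libraries. With library size alone this ratio was 0.0965 (0.00222 to 0.678). Fgf23 had 0, 0 and 2 against 0, 1 and 1 reads. Fgf15 had 0 in every library, which allows up to 0.106 to 0.156 CPM at 3 counts.

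Of 18 surface and matrix partners, 16 were tested, 3 rose and 9 fell (median -0.75), and with library size alone 2 rose and 11 fell (median -1.24). Over all genes 23.0% rose and 26.3% fell with TMM, and 5.72% rose and 51.4% fell with library size alone. Fgfrl1, an FGF receptor without a kinase domain that acts as a decoy, had 2053, 1882 and 2617 reads under normal phosphate and 600, 367 and 402 under high phosphate and fell from 80.4 ± 14.6 to 22.4 ± 4.58 CPM, a log2 change of -1.84 ± 0.18 (edgeR adjusted p = 0.000291). Lctl, a relative of the Klothos known as gamma-Klotho, fell from 1.04 ± 0.313 to 0.266 ± 0.0869 CPM, with a log2 change of -1.95 ± 0.40 (edgeR adjusted p = 0.00397). The heparan sulfate carrier Sdc2 (-0.73 ± 0.11) fell, whereas Flrt1 (1.56 ± 0.24), Fgfbp1, which releases FGFs from the matrix (2.81 ± 0.41), and Gpc1 (0.68 ± 0.14) rose, Gpc1 only relative to a typical gene (0.20 and not called with library size alone). Of the 12 heparan sulfate enzymes tested out of 14, 1 rose and 6 fell (median -0.48), and with library size alone 0 rose and 9 fell (median -0.96). Sulf2, which trims sulfate outside the cell, fell from 66.2 ± 11.1 to 23.5 ± 5.22 CPM (-1.50 ± 0.18), Hs6st2 fell (-0.84 ± 0.18) and Hs6st1 rose (0.47 ± 0.10), with its sign turned under library size alone (-0.013). The summed adipocyte and fibroblast markers fell between the diets along with Fgfrl1, Lctl, Sdc2 and Sulf2, and their part in these changes was not tested.

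The genes that carry the signal inside the cell moved both ways, as did all genes tested (23.0% rose and 26.3% fell). With library size alone 5.72% of all genes rose and 51.4% fell. Of 24 adaptors and kinases, all tested, 8 rose and 6 fell (median 0.15), and with library size alone 2 rose and 14 fell (median -0.33). Sos2 (0.85 ± 0.14), Map2k2 (0.92 ± 0.15) and the phosphatase Ptpn11 (0.62 ± 0.11) rose, the last not called with library size alone (0.14), and with log2(FPKM + 1) Sos2 was not called (0.28) and Ptpn11 changed sign (-0.037). The docking protein Frs2 had means of 26.6 ± 0.955 (normal) and 26.2 ± 2.19 CPM (high phosphate), did not pass the test (-0.017 ± 0.10, edgeR adjusted p = 0.899) and changed sign with DESeq2 (0.017), but was called lower with library size alone (-0.49). Of 9 calcineurin and NFAT genes, 5 rose and 2 fell (median 0.52). Ppp3cb (0.94 ± 0.18), Ppp3r1 (0.69 ± 0.13), Ppp3ca (0.75 ± 0.15) and Ppp3cc (0.52 ± 0.13), all calcineurin subunits, rose with Nfatc1 (0.37 ± 0.13), and Nfatc4 (-1.02 ± 0.17) and Nfatc2 (-0.55 ± 0.17) fell. Of the 8 muscle fibre markers 6 rose (median 1.14), and the fibroblast markers fell (median -1.17), and the part of either in these changes was not tested. With library size alone only Ppp3cb of these 5 was called higher (median of the list 0.06) and Nfatc1 changed sign (-0.10), and with log2(FPKM + 1) none of the 5 was called higher. Nfatc1 was called without normal phosphate replicate 1 and was not called without any other library (0.28 to 0.44), and Nfatc2 was not called without normal phosphate replicate 2 (-0.50) or high phosphate replicate 2 (-0.39) or 3 (-0.48). Ppp3r1 shares exonic bases with Wdr92 in the same orientation, which makes its count uncertain.

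Feedback inhibitors and response genes, which FGF signalling is known to induce, had 4 of 8 and 3 of 8 tested members called, beside 49.3% of all genes (23.0% higher and 26.3% lower). Of 8 tested feedback inhibitors, 0 rose and 4 fell (median -0.39), and with library size alone 7 fell (median -0.86). Those that fell with TMM were Spred1 (-0.83 ± 0.15), Spred2 (-0.53 ± 0.13), Il17rd (-0.51 ± 0.14) and Dusp6 (-0.46 ± 0.17). Il17rd was not called without high phosphate replicate 1 (-0.40), and Dusp6 was not called by DESeq2 (-0.43) or without any library except high phosphate replicate 2 (-0.30 to -0.51). Spry1 (-0.28) and Spry4 (-0.28) were not called, but both were with library size alone (-0.75 and -0.73). Of 8 response genes 0 rose and 3 fell (median -0.38), and with library size alone 5 fell (median -0.86). Egr1 fell from 28.1 ± 7.49 to 9.74 ± 4.37 CPM, a log2 change of -1.53 ± 0.32 (edgeR adjusted p = 0.00657; 0.0604 with no filter on low counts), and Ccnd1 (-0.83 ± 0.24) and Etv4 (-0.79 ± 0.24) fell, while Etv5 was not called (-0.088) except with library size alone (-0.57) and on the FPKM values (-0.42 for log2(FPKM + 1)), where it was lower. Ccnd1 was not called without high phosphate replicate 1 (-0.73) or 3 (-0.80), nor Etv4 without normal phosphate replicate 2 (-0.60) or high phosphate replicate 1 (-0.64) or 2 (-0.79). At least 21.6% of the 50-base stretches of Ccnd1, Spry1 and Etv5 occur in transcripts of other genes.

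Of the tested relatives of Galnt3, 58.3% were called, and of the other genes that process FGF23 and the Klothos, 37.5%. Over all genes 49.3% were called (23.0% higher and 26.3% lower). Of 18 other GALNT enzymes in the table, 12 were tested, 1 rose and 6 fell (median -0.52), and with library size alone 0 rose and 10 fell (median -1.0). Galnt2 was not tested, with 3 to 7 counts per library, but its deposited FPKM was 16.8 to 22.6. It shares 90.0% of its exonic bases with other genes in the same orientation, which makes its count uncertain. Galnt5 (2.72 ± 0.377 to 0.302 ± 0.260 CPM, -3.11 ± 0.45), Galnt6 (3.12 ± 1.47 to 0.358 ± 0.0993 CPM, -3.10 ± 0.45) and Galnt4 (-0.79 ± 0.14) fell, and the abundant Galnt1 rose by edgeR with TMM (0.42 ± 0.12) but turned negative with library size alone (-0.055) and was called lower with log2(FPKM + 1) (-0.84, limma adjusted p = 0.0286). The ratio of its FPKM to unscaled CPM varied 3.28-fold between libraries. Galnt1 was also not called without high phosphate replicate 3 (0.34). Of 8 processing genes, 0 rose and 3 fell (median -0.12): the proprotein convertase Pcsk5 (-1.53 ± 0.29) and the sheddases Adam10 (-0.55 ± 0.14) and Adam17 (-0.41 ± 0.11), which release the outer part of Klotho from the membrane. Adam17 was not called without high phosphate replicate 1 (-0.38) or 2 (-0.39). Fam20c, the kinase that phosphorylates FGF23, stood at 0.32 and did not pass the test (edgeR adjusted p = 0.0584). Its sign turned under library size alone (-0.16), and it was called higher without high phosphate replicate 2 (0.43).

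**Figure D4:**
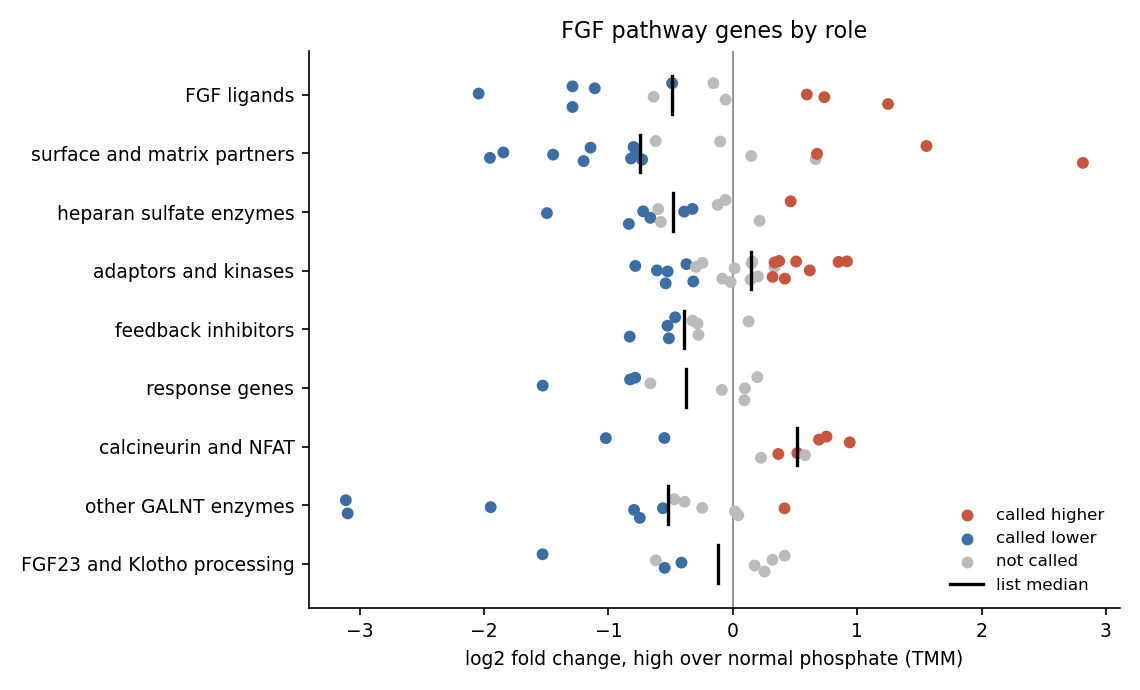
Log2 fold change (x axis, high over normal phosphate, TMM) of every tested gene in 9 lists of the FGF pathway, with red for called higher, blue for called lower, grey for not called and a black bar for the list median. Feedback inhibitors, response genes and FGF23 and Klotho processing genes hold 0 red points, where 23.0% of all genes tested rose. The list medians run from -0.75 (surface and matrix partners) to 0.52 (calcineurin and NFAT). The row of FGF ligands includes Fgf11, Fgf13 and Fgf14, which stay inside the cell.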

How the data were processed

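Gastrocnemius RNA of 3 normal and 3 high phosphate libraries was compared. The counts are whole-number reads per gene as deposited by the authors, not normalized, and the FPKM values are the authors' own, with no method given in the sources used here. Per the submitters' processing notes, featureCounts 1.4.6, HISAT2 2.0.1, DESeq2 1.6.3 and Trim Galore 0.4.1 were used, with the build GRCm38. Without a stated strand setting, the reads of a gene and of its antisense partner cannot be told apart.

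Libraries were grouped and numbered by their titles, and the labels give no batch. Members and lists were chosen with earlier results of these data known. Counts were tested with edgeR 4.0.16 (R 4.3.3): TMM, filterByExpr, robust quasi-likelihood F test and Benjamini-Hochberg adjustment over 15347 genes, called at an adjusted p under 0.05. The SE is the fold change divided by the square root of F. limma 3.58.1 and DESeq2 1.42.0 were alternatives. Exon lengths, gene positions and shared 50-base stretches come from GENCODE M21, and intervals of pooled count ratios are exact and conditional on the total.

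Named were the 7 members, 15 fixed genes, up to 3 called genes by smallest p from each list, and the 3 closest profiles of each tested member, of which 1 is not reported here. The genes Fgf7, Fgf13, Fgf16, Fgf18, Fgfbp1, Gpc1, Ppp3ca, Ppp3cc, Nfatc1, Nfatc2 and Galnt1 were named after their values were seen.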

Additional observations from a re-analysis of the deposited data

How the results depend on the processing

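The number of members called stayed between 3 and 6 under every alternative run except limma on the deposited FPKM, where it was 2 with a pseudocount of 1 and 2 with 0.1. Without each library in turn it was 3 to 4, and without a filter on low counts 6, since Kl and Galnt3 were then tested. The calls over all genes ran from 6152 to 8972 and those over the FGF pathway lists from 51 to 76. Signs turned for genes near 0 or with library size alone or FPKM. With library size alone these were Fgfr1 (-0.31), Hs6st1 (-0.013), Fam20c (-0.16), Nfatc1 (-0.10) and Galnt1 (-0.055). On the log2(FPKM + 1) and log2(FPKM + 0.1) scales they were Fgfr1 (-0.33 and -0.34), Ptpn11 (-0.037 and -0.038), Fgf2 (0.60 and 0.66), Fgf13 (-0.15 and -0.087), Fam20c (-0.14 and -0.17), Nfatc1 (-0.14 and -0.15) and Galnt1 (-0.84 and -0.91). Frs2 turned with DESeq2 (0.017) and without normal phosphate replicate 2 (0.003), high phosphate replicate 1 (0.048) or high phosphate replicate 2 (0.007), and ran from -0.069 to 0.048 without single libraries. The cause was not tested. Same-numbered libraries of the diets had correlations of their deviations of -0.022, 0.022 and 0.019 across genes, and not every library correlated best with its own number, so they share only a number. With the replicate number as a block, 4 members, 69 pathway genes and 7328 genes in all were called, and among the named genes only Nfatc1 lost its call (0.37, edgeR adjusted p = 0.0533). At 3 counts for 0.106 to 0.156 CPM, counting error limits Kl, Galnt3 and Fgf21.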
